A study of Mus musculus with 15 samples.

Results

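The genes described here form the sphingolipid and barrier lipid pathway of skin: 37 listed genes for ceramide synthesis, acylceramide and very long chain fatty acids, headgroup addition, sphingomyelin breakdown, and the breakdown of ceramide to sphingosine. The list is by gene symbol, matched through GENCODE M21, with no threshold on measured values, although it was drawn up with earlier results of these data known. Of the symbols, 37 of 37 were found among the 48795 genes of the count tables. Each of them also passed the filter on low counts that left 14991 genes to test. The 15 libraries hold polyA RNA of ears, taken from female mice at 5 weeks, in a model where phorbol 12-myristate 13-acetate (PMA), an irritant that activates protein kinase C, inflames the ear. Control (n = 5) is labelled only as control, PMA_ethanol (n = 4) names PMA and ethanol, and PMA_1002 (n = 6) names PMA and peptide 1002, an innate defense regulator. The labels used here give no dose, time or strain, and do not say what Control ears were treated with. Since the label PMA_1002 leaves ethanol unnamed, effects of the peptide and of a changed vehicle cannot be told apart. Nothing states that each library is a different animal, so a p-value here reflects only variation among these samples, possibly technical.

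Ceramide is made from serine and palmitoyl-CoA in the endoplasmic reticulum, first by serine palmitoyltransferase, then by a reductase, a ceramide synthase and a desaturase. In differentiating keratinocytes, ceramides with very long and ultra-long acyl chains are linked to linoleate, glucosylated, loaded into lamellar granules and released between the cells of the outer epidermis, where they keep water in. Ceramide can instead become sphingomyelin, or be cut to sphingosine and phosphorylated to a signalling lipid.

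Levels below are CPM, the usual depth-scaled read counts, relative to the TMM-scaled number of reads in genes of each library. PMA_ethanol library 3 had the fewest such reads, 2656680, and PMA_1002 library 5 the most, 28585995. Fold changes are log2 values with standard errors (SE), and adjusted p-values are from edgeR's two-sided quasi-likelihood test with Benjamini-Hochberg adjustment over the 14991 genes. A gene is called higher or lower at an adjusted p under 0.05. The 3 comparisons share libraries with each other, so their values are given side by side.

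With PMA_ethanol, 17 of the 37 genes rose and 10 fell against Control. The rises included Cers3, Sgms2, Ugcg and Abca12, and the falls included Acer1, Smpd2 and Kdsr. The 27 calls are 73.0% of the list, beside 68.4% of all genes tested (32.5% higher, 35.9% lower). The median log2 fold change was 0.24 over the 37 genes and -0.07 over all genes. Between PMA_1002 and PMA_ethanol, 8 of the 37 were higher with the peptide and 12 lower, 54.1% of the list beside 35% of all genes (17% higher, 18% lower), with a median of 0.02 over the list and 0.03 over all genes. Against Control, 17 were higher and 4 lower in PMA_1002, 56.8% of the list beside 55% of all genes (28.4% higher, 26.7% lower). Calls with at least a 2-fold change numbered 11, 0 and 4 of the 37 in the 3 comparisons, beside 27.6%, 7.52% and 12.4% of all genes. The listed genes had a median level of 6.75 log2 CPM and all tested genes one of 4.74. Groups did not overlap in CPM for 21, 11 and 16 of the 37 in the order of these comparisons, which is 56.8%, 29.7% and 43.2% beside 57.8%, 24.1% and 36.7% of all genes.

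With upper-quartile scaling the split was 13 higher and 14 lower for PMA_ethanol versus Control, 10 higher and 7 lower for PMA_1002 versus PMA_ethanol, and 15 higher and 8 lower for PMA_1002 versus Control. Over all genes, that scaling called 24.6% higher and 48.4% lower, 22.9% and 14.1%, and 20.5% and 38.8% in the same order. It moved the median log2 fold change of all genes by -0.236, 0.077 and -0.158, to -0.303, 0.109 and -0.187. The number lower with the peptide went from 12 to 7 without PMA_ethanol library 3, and the number higher from 8 to 5 without PMA_ethanol library 2. Of the 27, 20 and 21 calls in the 3 comparisons, 18, 10 and 15 were kept in all 24 alternative analyses.

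**Figure D1:**
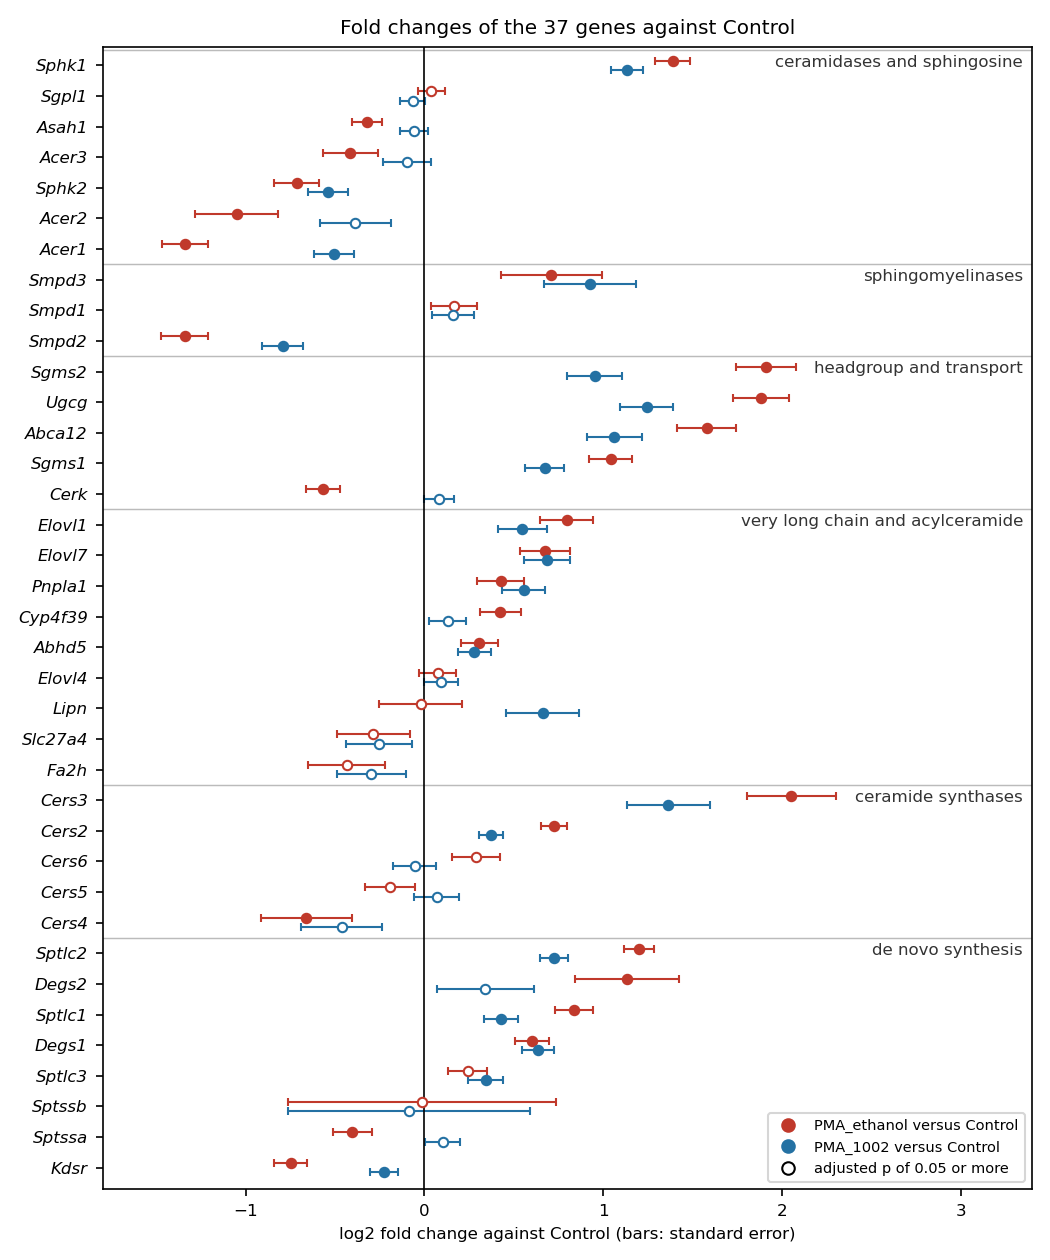
Log2 fold change against Control of the 37 genes, grouped by role, for PMA_ethanol (red) and PMA_1002 (blue); bars are standard errors and open circles have an edgeR adjusted p of 0.05 or more. Cers3, Sgms2, Ugcg and Abca12 lie farthest to the right in PMA_ethanol, at 2.05, 1.91, 1.88 and 1.58, and Acer1 and Smpd2 farthest to the left, both at -1.34.

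The phorbol ester is known to act on genes through AP-1 factors, which bind the TPA response element (TPA being another name of PMA). The element was searched for as TGANTCA, with any base at N, a pattern that is the same on both strands. Promoter windows of 300 bases, 250 before and 50 after a start site, were taken from RefSeq on GRCm38.p6 and cover 34 of the 37 genes in 50 windows. The motif was found in 7 of the 50 windows and 5 of the 34 genes, Acer3, Lipn, Sgms1, Sgms2 and Sphk1, and in 7.81% of all 32851 windows and 8.97% of all 27025 genes. The matches in these 5 genes all read TGAGTCA or TGACTCA, while the shares over all windows and genes count any base at N. The matched Sphk1 windows, starting at 116531587 and 116531661, overlap and hold the same site. Sgms2 has 6 windows, Sphk1 5 and Sgms1 4, and the shares were not adjusted for the number of windows of a gene. A match is a description of letters and not a shown binding site. The windows of the 3 matched genes that rose with PMA_ethanol are shown, 1 of several start sites of each gene, in the direction of transcription with the motif in capitals.
Sphk1 (chr11:116531587-116531886, + strand): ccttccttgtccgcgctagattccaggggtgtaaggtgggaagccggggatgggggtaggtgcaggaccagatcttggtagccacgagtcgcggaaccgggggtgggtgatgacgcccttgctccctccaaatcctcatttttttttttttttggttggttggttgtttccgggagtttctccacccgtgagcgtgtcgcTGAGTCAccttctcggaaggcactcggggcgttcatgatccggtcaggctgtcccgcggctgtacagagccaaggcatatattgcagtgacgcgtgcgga
Sgms2 (chr3:131490611-131490910, - strand): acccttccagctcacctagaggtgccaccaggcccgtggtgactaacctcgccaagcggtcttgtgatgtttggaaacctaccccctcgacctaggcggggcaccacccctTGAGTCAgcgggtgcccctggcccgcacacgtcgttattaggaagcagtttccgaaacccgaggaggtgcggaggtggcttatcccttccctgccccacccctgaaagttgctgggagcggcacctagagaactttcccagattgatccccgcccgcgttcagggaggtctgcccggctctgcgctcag
Sgms1 (chr19:32210964-32211263, - strand): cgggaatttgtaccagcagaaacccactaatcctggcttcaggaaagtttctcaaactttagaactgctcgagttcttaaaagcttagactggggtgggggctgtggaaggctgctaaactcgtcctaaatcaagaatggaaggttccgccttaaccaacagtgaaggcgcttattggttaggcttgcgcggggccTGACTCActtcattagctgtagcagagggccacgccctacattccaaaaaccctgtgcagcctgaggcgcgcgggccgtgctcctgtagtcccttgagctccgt

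In the windows shown, the motif begins at base -50 from the start site in Sphk1, -139 in Sgms2 and -54 in Sgms1. Another Sgms2 window, not shown (chr3:131490181-131490480), holds a different site of the motif at -176. Acer3 and Lipn, whose windows also hold it, did not rise with PMA_ethanol (-0.41 and -0.02), and Cers3 and Ugcg, whose windows do not, rose by 2.05 and 1.88.

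Cell type markers of the ear moved with the groups, and in bulk tissue fewer cells of a type and less RNA per cell cannot be told apart. The summed level of 9 suprabasal keratinocyte markers (Krt1, Krt10 and others), the cells that make the barrier lipids, was 17055 to 23923 CPM in Control, 9378 to 13099 CPM in PMA_ethanol and 19010.0 to 22291 CPM in PMA_1002, so PMA_ethanol lay below both other groups, with 6 of 9 lower and 0 higher than in Control by edgeR. The sum of 7 basal keratinocyte markers was 10410.0 to 13202 CPM in Control, 7051 to 8983 CPM in PMA_ethanol and 11276 to 12553 CPM in PMA_1002. By edgeR, 3 of these 7 were lower and 1 of 7 higher in PMA_ethanol than in Control, with a median log2 fold change of -0.21. The sum of 8 neutrophil markers was 99.7 to 122 CPM in Control, 1291 to 2781 CPM in PMA_ethanol and 354 to 631 CPM in PMA_1002, and that of 9 monocyte and macrophage markers was 717 to 871 CPM in Control, 1770.5 to 2514 CPM in PMA_ethanol and 1246 to 1650.2 CPM in PMA_1002. The sum of 13 sebaceous gland markers, of which Elovl3 and Fads2 are also among the other barrier lipid genes below, was 2352 to 2629.9 CPM in Control, 1512 to 2318 CPM in PMA_ethanol and 1984 to 2506 CPM in PMA_1002. Of these, 7 of 13 were lower in PMA_ethanol than in Control by edgeR and 2 of 13 higher, Dgat2l6 (1.01) and Awat1 (0.57), both enzymes of neutral lipid and wax synthesis. Hair follicle markers varied within every group, from 72.7 to 3697 CPM in Control, 19.1 to 3824 CPM in PMA_ethanol and 15.4 to 1238 CPM in PMA_1002. No marker of these lists was at 0 in a whole group. The part of these shifts in the results below was not tested, except for fits with the sebaceous or the hair follicle level of each library as a covariate, chosen after seeing the data.

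Serine palmitoyltransferase, which sets the rate of the pathway, is a pair of a Sptlc1 subunit with Sptlc2 or Sptlc3, plus a small subunit (Sptssa or Sptssb). Both Sptlc1 and Sptlc2 rose with PMA_ethanol and lay in between with the peptide. Sptlc1 had 77.0, 74.9, 86.0, 73.7 and 85.6 CPM in Control libraries 1 to 5 and 152, 138, 154 and 125 CPM in PMA_ethanol libraries 1 to 4. For Sptlc1, the 6 PMA_1002 libraries lay between 89.2 and 125 CPM with a median of 106. All PMA_ethanol libraries were above all others, and all PMA_1002 libraries above Control. Sptlc1 had a log2 fold change of 0.84 (SE 0.106, adjusted p = 2.23e-06 by edgeR) for PMA_ethanol versus Control. In Sptlc1 it was -0.41 (SE 0.101, adjusted p = 0.00479 by edgeR) for PMA_1002 versus PMA_ethanol and 0.43 (SE 0.0968, adjusted p = 0.00126 by edgeR) for PMA_1002 versus Control. Sptlc2 (chromosome 12, 87305058 to 87388355, GRCm38) had 74.1, 60.3, 68.7, 63.5 and 72.2 CPM in Control libraries 1 to 5 and 169, 159, 156 and 139 CPM in PMA_ethanol libraries 1 to 4. For Sptlc2, the 6 PMA_1002 libraries lay between 98.6 and 124 CPM with a median of 114. Its groups did not overlap either. Sptlc2 had a log2 fold change of 1.20 (SE 0.0835, adjusted p = 1.47e-09 by edgeR) for PMA_ethanol versus Control. In Sptlc2 it was -0.48 (SE 0.0790, adjusted p = 0.000179 by edgeR) for PMA_1002 versus PMA_ethanol and 0.73 (SE 0.0766, adjusted p = 6.56e-07 by edgeR) for PMA_1002 versus Control. Sptlc3 makes sphingoid bases of other chain lengths. It had 78.6, 64.4, 61.7, 79.2 and 67.9 CPM in Control libraries 1 to 5 and 95.2, 67.3, 80.5 and 90.0 CPM in PMA_ethanol libraries 1 to 4. For Sptlc3, the 6 PMA_1002 libraries lay between 75.7 and 96.6 CPM with a median of 91.3, and the groups overlapped. Against Control its change in PMA_ethanol was 0.24 (SE 0.108, adjusted p = 0.0544 by edgeR) and in PMA_1002 0.34 (SE 0.0971, adjusted p = 0.00653 by edgeR). The Sptlc3 change in PMA_ethanol passed the test in 9 of 24 alternatives, and the one in PMA_1002 was lost with upper-quartile scaling (adjusted p = 0.097) and with the sebaceous covariate (adjusted p = 0.156). Among the small subunits, Sptssa (152 to 194 CPM in Control, 111 to 152 in PMA_ethanol and 157 to 207 in PMA_1002) fell by 0.40 on the log2 scale with PMA_ethanol (edgeR adjusted p = 0.00395) and was higher with the peptide by 0.51 (SE 0.107, adjusted p = 0.00154 by edgeR). Sptssb had between 0.670 and 14.5 CPM over the 15 libraries with wide spread in each PMA group, and its change was -0.01 (SE 0.750, adjusted p = 0.988 by edgeR).

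The reductase Kdsr, which acts next, fell with PMA_ethanol and was higher again with the peptide. Kdsr had 103, 81.5, 98.4, 102 and 98.6 CPM in Control libraries 1 to 5 and 64.5, 56.0, 48.1 and 60.2 CPM in PMA_ethanol libraries 1 to 4. For Kdsr, the 6 PMA_1002 libraries lay between 73.9 and 89.4 CPM with a median of 84.8. PMA_ethanol lay below both other groups. Kdsr had a log2 fold change of -0.75 (SE 0.0912, adjusted p = 1.44e-06 by edgeR) for PMA_ethanol versus Control. In Kdsr it was 0.52 (SE 0.0880, adjusted p = 0.000208 by edgeR) for PMA_1002 versus PMA_ethanol and -0.23 (SE 0.0801, adjusted p = 0.0243 by edgeR) for PMA_1002 versus Control. The last of these calls was lost without Control libraries 1 or 4 or PMA_1002 libraries 2 or 5 (adjusted p between 0.0511 and 0.0621), and without the filter on low counts, with the hair follicle covariate or with the sebaceous covariate (adjusted p between 0.0837 and 0.136). Degs1, the desaturase that turns dihydroceramide into ceramide, ranged over 169 to 210.4 CPM in Control, 252 to 319 in PMA_ethanol and 243 to 319 in PMA_1002. It rose in both PMA groups, by 0.60 (SE 0.0970, adjusted p = 3.19e-05 by edgeR) in PMA_ethanol and 0.64 (SE 0.0887, adjusted p = 1.48e-05 by edgeR) in PMA_1002, and between them the change was 0.03 (SE 0.0935, adjusted p = 0.826 by edgeR). Degs2, which also hydroxylates and so makes phytoceramide, had a Control level per kilobase of 2.61 ± 1.13 CPM beside 72.1 ± 7.15 for Degs1 (SD, n = 5), and ranged over 2.76 to 10.4 CPM in Control, 10.4 to 22.5 in PMA_ethanol and 7.27 to 11.6 in PMA_1002. Degs2 rose by 1.13 (SE 0.290, adjusted p = 0.00234 by edgeR) with PMA_ethanol and was lower with the peptide, at -0.79 (SE 0.273, adjusted p = 0.0331 by edgeR). The latter call was lost without PMA_ethanol library 2 or PMA_1002 libraries 1, 2, 4 or 5 (adjusted p between 0.0511 and 0.189), and with upper-quartile scaling, without the filter on low counts or with the hair follicle covariate (adjusted p between 0.0505 and 0.128).

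Ceramide synthases attach the acyl chain, and each prefers certain chain lengths: Cers2 very long chains, Cers3 the longest chains of epidermis, Cers4 intermediate ones, and Cers5 and Cers6 shorter ones. Cers3 (chromosome 7, 66743504 to 66823691, GRCm38) had the largest fitted rise of the 37 genes in PMA_ethanol. It had 50.6, 29.6, 46.5, 42.7 and 48.2 CPM in Control libraries 1 to 5 and 267, 130.2, 192 and 136 CPM in PMA_ethanol libraries 1 to 4. For Cers3, the 6 PMA_1002 libraries lay between 66.9 and 137 CPM with a median of 124. Every PMA library was above every Control library, while PMA_ethanol and PMA_1002 overlapped. Cers3 had a log2 fold change of 2.05 (SE 0.250, adjusted p = 4.32e-06 by edgeR) for PMA_ethanol versus Control. In Cers3 it was -0.69 (SE 0.230, adjusted p = 0.0318 by edgeR) for PMA_1002 versus PMA_ethanol and 1.37 (SE 0.231, adjusted p = 0.000185 by edgeR) for PMA_1002 versus Control. The lower level with the peptide lost its call without PMA_ethanol libraries 1 or 3 or PMA_1002 library 3 (adjusted p between 0.0629 and 0.153), and without the filter on low counts, with only these groups in the fit, with the hair follicle covariate or with the sebaceous covariate (adjusted p between 0.0542 and 0.0983). Cers2 rose less but with little spread, with 66.2, 70.1, 72.7, 73.7 and 65.6 CPM in Control libraries 1 to 5 and 119.7, 120.2, 112 and 109 CPM in PMA_ethanol libraries 1 to 4. For Cers2, the 6 PMA_1002 libraries lay between 80.3 and 99.3 CPM with a median of 92.5. The 3 groups were apart. Cers2 had a log2 fold change of 0.73 (SE 0.0730, adjusted p = 1.38e-07 by edgeR) for PMA_ethanol versus Control. In Cers2 it was -0.35 (SE 0.0696, adjusted p = 0.00081 by edgeR) for PMA_1002 versus PMA_ethanol and 0.37 (SE 0.0665, adjusted p = 0.000168 by edgeR) for PMA_1002 versus Control. Cers6 (32.6 to 39.9 CPM in Control, 41.7 to 45.6 in PMA_ethanol and 21.5 to 39.2 in PMA_1002) had a change of 0.29 (SE 0.134, adjusted p = 0.062 by edgeR) with PMA_ethanol, which passed in 8 of 24 alternatives, and one of -0.35 (SE 0.128, adjusted p = 0.0444 by edgeR) with the peptide. That call was lost without Control libraries 4 or 5, PMA_ethanol libraries 1, 2, 3 or 4 or PMA_1002 libraries 2 or 4 (adjusted p between 0.0544 and 0.1), and with upper-quartile scaling, without the filter on low counts or with only these groups in the fit (adjusted p between 0.0592 and 0.109). Cers5 (106 to 127 CPM in Control, 78.8 to 128 in PMA_ethanol and 103 to 162 in PMA_1002) passed in no comparison, with -0.19 (SE 0.140, adjusted p = 0.233 by edgeR) for PMA_ethanol versus Control. It was called lower there with upper-quartile scaling and with the sebaceous covariate. Those settings, and leaving out PMA_ethanol library 3, called it higher in PMA_1002 than in PMA_ethanol.

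Cers4 was the most abundant ceramide synthase of Control ears per length. Per kilobase of exons, the Control means were 57.7 ± 5.02 CPM for Cers4, 32.8 ± 2.58 for Cers5, 18.9 ± 0.996 for Cers2, 13.4 ± 2.55 for Cers3 and 4.02 ± 0.336 for Cers6 (SD, n = 5). In PMA_ethanol the order began with Cers3 at 55.7 ± 19.5, followed by Cers4 at 36.4 ± 14.4, Cers2 at 31.4 ± 1.53 and Cers5 at 29.0 ± 5.71 (SD, n = 4), and the spreads of these neighbours overlapped. Cers4 itself had 606, 733, 766, 737 and 699 CPM in Control libraries 1 to 5 and 387, 535, 230.2 and 634 CPM in PMA_ethanol libraries 1 to 4. For Cers4, the 6 PMA_1002 libraries lay between 321 and 687 CPM with a median of 511. It fell by 0.66 on the log2 scale with PMA_ethanol (SE 0.257, edgeR adjusted p = 0.0333), and that call was lost without Control libraries 2, 3 or 4 or PMA_ethanol libraries 1 or 3 (adjusted p between 0.0543 and 0.089), and without the filter on low counts or with the sebaceous covariate (adjusted p between 0.0985 and 0.676).

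The extremes of Cers4 fell in the libraries with the extreme sebaceous marker levels. Its lowest value, in PMA_ethanol library 3, came from the library with the lowest sebaceous marker level (mean log2 CPM of the 13 markers 5.64), and its highest, in Control library 3, from the one with the highest (6.62). The summed level of 6 fibroblast markers was also lowest in that PMA_ethanol library (9749 CPM) and highest in that Control library (32699 CPM). PMA_ethanol library 3 had the fewest reads in genes as well. The part of each of these in the Cers4 values was not tested apart from the others. Fa2h, which adds a hydroxyl group to the acyl chain, and Slc27a4, a fatty acid transporter and acyl-CoA synthetase, had their lowest values in that same PMA_ethanol library, 465 and 308 CPM. Over the libraries Fa2h had 1085 to 1234 CPM in Control, 465 to 1157 in PMA_ethanol and 657 to 1237 in PMA_1002, and Slc27a4 545 to 759 CPM in Control, 308 to 691 in PMA_ethanol and 403 to 694 in PMA_1002. The highest Fa2h value was thus in a PMA_1002 library, not in the Control library with the highest sebaceous level, and the highest Slc27a4 value was in a Control library. Neither gene passed in any comparison (Fa2h -0.43, SE 0.215, adjusted p = 0.0844 by edgeR and Slc27a4 -0.28 (SE 0.206, adjusted p = 0.231 by edgeR) for PMA_ethanol versus Control). In that comparison both were called lower with upper-quartile scaling, and Fa2h also without PMA_ethanol library 4. With the sebaceous level as a covariate, the fold change of Cers4 for PMA_ethanol versus Control was 0.12 (edgeR adjusted p = 0.676), opposite in sign. With that covariate the change of Smpd3, a neutral sphingomyelinase, was -0.18 (edgeR adjusted p = 0.626), and that of Abhd5 -0.03 (edgeR adjusted p = 0.821), both also opposite in sign. The sebaceous level itself differs between the groups, so the covariate takes up part of the group difference.

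**Figure D2:**
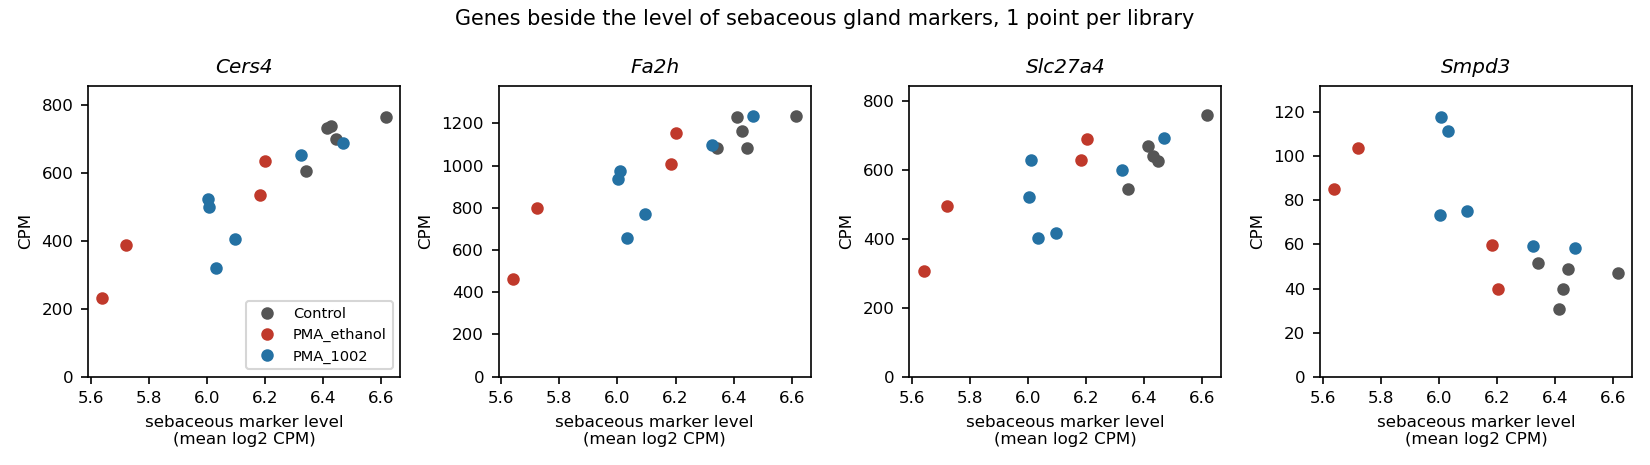
CPM of Cers4, Fa2h, Slc27a4 and Smpd3 (vertical axes) against the mean log2 CPM of 13 sebaceous gland markers (horizontal axes), 1 point per library, coloured by group. Cers4, Fa2h and Slc27a4 are lowest in the PMA_ethanol library at 5.64 on the horizontal axis, and Control libraries lie between 6.34 and 6.62.

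Elongases build the very long acyl chains. Elovl4, which makes the ultra-long chains of acylceramide, had the highest level per kilobase of exons of the 37 genes in Control (484 ± 51.3 CPM, SD, n = 5) and did not pass in any comparison. It had 1520.4, 1270.0, 1335, 1628 and 1574 CPM in Control libraries 1 to 5 and 1666, 1392, 1567 and 1551 CPM in PMA_ethanol libraries 1 to 4. For Elovl4, the 6 PMA_1002 libraries lay between 1351 and 1829 CPM with a median of 1564. The groups overlapped throughout, with 0.08 (SE 0.104, adjusted p = 0.536 by edgeR) for PMA_ethanol versus Control and 0.02 (SE 0.10, adjusted p = 0.922 by edgeR) for PMA_1002 versus PMA_ethanol. Elovl1, which supplies saturated very long chains, had 155 to 205 CPM in Control, 248 to 411 in PMA_ethanol and 219.8 to 344 in PMA_1002 and rose by 0.80 (SE 0.149, adjusted p = 0.000162 by edgeR) with PMA_ethanol and 0.55 (SE 0.136, adjusted p = 0.00275 by edgeR) in PMA_1002 against Control. Elovl7 had 117 to 166 CPM in Control, 177 to 287 in PMA_ethanol and 187 to 271 in PMA_1002, with rises of 0.68 (SE 0.141, adjusted p = 0.000418 by edgeR) and 0.69 (SE 0.129, adjusted p = 0.00027 by edgeR). For neither elongase did PMA_1002 and PMA_ethanol differ by the test (Elovl1 -0.25, SE 0.143, adjusted p = 0.197 by edgeR, against Elovl7 0.01 (SE 0.136, adjusted p = 0.96 by edgeR)). With the sebaceous covariate the 2 calls for PMA_ethanol versus Control were lost (edgeR adjusted p = 0.119 for Elovl1 and 0.251 for Elovl7), and so was the call of Elovl1 for PMA_1002 versus Control (adjusted p = 0.087).

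Cyp4f39, the mouse fatty acid omega-hydroxylase of this pathway, had 66.1, 64.1, 78.0, 59.3 and 66.6 CPM in Control libraries 1 to 5 and 101, 96.2, 69.3 and 90.4 CPM in PMA_ethanol libraries 1 to 4. For Cyp4f39, the 6 PMA_1002 libraries lay between 62.8 and 84.4 CPM with a median of 73.4. It rose by 0.43 (SE 0.113, adjusted p = 0.00299 by edgeR) with PMA_ethanol, a call lost with upper-quartile scaling (edgeR adjusted p = 0.147). Its lower level with the peptide, -0.29 (SE 0.108, adjusted p = 0.0442 by edgeR), lost its call without Control libraries 1, 2 or 5, PMA_ethanol libraries 1, 2 or 4 or PMA_1002 libraries 2, 3, 4 or 5 (adjusted p between 0.0507 and 0.153), and with upper-quartile scaling, without the filter on low counts, with only these groups in the fit or with the hair follicle covariate (adjusted p between 0.0603 and 0.14). Pnpla1, the transferase that joins linoleate to the hydroxylated chain, had 57.9, 49.6, 55.6, 49.3 and 52.0 CPM in Control libraries 1 to 5 and 82.2, 69.0, 72.2 and 61.2 CPM in PMA_ethanol libraries 1 to 4. For Pnpla1, the 6 PMA_1002 libraries lay between 62.2 and 102 CPM with a median of 76.1. All PMA libraries were above Control. Pnpla1 had a log2 fold change of 0.43 (SE 0.131, adjusted p = 0.00825 by edgeR) for PMA_ethanol versus Control. In Pnpla1 it was 0.13 (SE 0.126, adjusted p = 0.456 by edgeR) for PMA_1002 versus PMA_ethanol and 0.56 (SE 0.119, adjusted p = 0.000825 by edgeR) for PMA_1002 versus Control. The first of these calls was lost with upper-quartile scaling (edgeR adjusted p = 0.19) and with the sebaceous covariate (adjusted p = 0.766). Abhd5, which assists Pnpla1, had 111 to 136 CPM in Control, 125 to 180.4 in PMA_ethanol and 136 to 162 in PMA_1002 and rose by 0.31 (SE 0.103, adjusted p = 0.0137 by edgeR) with PMA_ethanol, a call lost without PMA_ethanol libraries 1 or 3 (adjusted p between 0.055 and 0.0622), and with upper-quartile scaling or with the sebaceous covariate (adjusted p between 0.546 and 0.821). In PMA_1002 its change against Control was 0.28 (SE 0.0931, adjusted p = 0.0171 by edgeR), also lost with that scaling (adjusted p = 0.244) and with the sebaceous covariate (adjusted p = 0.42).

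Lipn, a lipase of the upper epidermis, had 7.23 to 14.4 CPM in Control, 7.05 to 13.3 in PMA_ethanol and 13.2 to 23.5 in PMA_1002. It did not pass between PMA_ethanol and Control (-0.02, SE 0.233, adjusted p = 0.946 by edgeR) but was higher in PMA_1002 than in PMA_ethanol by 0.68 (SE 0.223, adjusted p = 0.0248 by edgeR) and than in Control by 0.66 (SE 0.206, adjusted p = 0.0117 by edgeR). The call against PMA_ethanol was lost without PMA_ethanol library 2 or PMA_1002 library 5 (adjusted p between 0.059 and 0.0974), and the one against Control with the sebaceous covariate (adjusted p = 0.204). Lipn lies on chromosome 19, 34067358 to 34084918 (GRCm38, plus strand) between 2 other epidermal lipase genes of the same strand, Lipk (34008290 to 34047835) and Lipm (34100933 to 34122687). Lipk and Lipm were also higher in PMA_1002 than in PMA_ethanol, by 0.58 (SE 0.108, adjusted p = 0.000464 by edgeR) and 1.04 (SE 0.134, adjusted p = 1.66e-05 by edgeR), while against Control PMA_ethanol had -0.26 (SE 0.112, adjusted p = 0.0515 by edgeR) for Lipk and -1.29 (SE 0.139, adjusted p = 3.36e-07 by edgeR) for Lipm.

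Genes that use ceramide for other lipids, or move it, had some of the largest rises. Ugcg (chromosome 4, 59189257 to 59222833), the synthase of glucosylceramide, had 83.2, 51.0, 68.4, 85.8 and 90.0 CPM in Control libraries 1 to 5 and 342, 237, 299 and 240.2 CPM in PMA_ethanol libraries 1 to 4. For Ugcg, the 6 PMA_1002 libraries lay between 137 and 207 CPM with a median of 179. The 3 groups did not overlap. Ugcg had a log2 fold change of 1.88 (SE 0.159, adjusted p = 2.46e-08 by edgeR) for PMA_ethanol versus Control. In Ugcg it was -0.64 (SE 0.149, adjusted p = 0.00317 by edgeR) for PMA_1002 versus PMA_ethanol and 1.24 (SE 0.147, adjusted p = 2.97e-06 by edgeR) for PMA_1002 versus Control. Abca12 (chromosome 1, 71242276 to 71414910), the transporter that loads glucosylceramide into lamellar granules, had 245, 165, 209.9, 205 and 238 CPM in Control libraries 1 to 5 and 718, 507, 784 and 537 CPM in PMA_ethanol libraries 1 to 4. For Abca12, the 6 PMA_1002 libraries lay between 349 and 609.8 CPM with a median of 424. Every PMA library exceeded Control. Abca12 had a log2 fold change of 1.58 (SE 0.166, adjusted p = 3.31e-07 by edgeR) for PMA_ethanol versus Control. In Abca12 it was -0.52 (SE 0.157, adjusted p = 0.0177 by edgeR) for PMA_1002 versus PMA_ethanol and 1.06 (SE 0.153, adjusted p = 2.38e-05 by edgeR) for PMA_1002 versus Control. The call with the peptide was lost without PMA_ethanol libraries 1 or 3 (adjusted p between 0.0633 and 0.0772), and with the sebaceous covariate (adjusted p = 0.0992). Cerk, which phosphorylates ceramide, went the other way. It ranged over 95.1 to 118 CPM in Control, 54.3 to 79.5 in PMA_ethanol and 104 to 115 in PMA_1002, fell by 0.56 on the log2 scale with PMA_ethanol (SE 0.0953, edgeR adjusted p = 5.21e-05) and was higher with the peptide by 0.65 (SE 0.0923, adjusted p = 4.24e-05 by edgeR). PMA_ethanol lay below both other groups for Cerk.

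Sgms1 and Sgms2 transfer phosphocholine to ceramide to form sphingomyelin, Sgms1 in the Golgi and Sgms2 also at the plasma membrane. Sgms2 (chromosome 3, 131318985 to 131491411) had 27.9, 20.3, 26.0, 25.9 and 24.3 CPM in Control libraries 1 to 5 and 108, 59.9, 109.5 and 101 CPM in PMA_ethanol libraries 1 to 4. For Sgms2, the 6 PMA_1002 libraries lay between 38.8 and 57.5 CPM with a median of 48.6. The 3 groups were apart, PMA_ethanol library 2 being nearest to PMA_1002. Sgms2 had a log2 fold change of 1.91 (SE 0.168, adjusted p = 3.63e-08 by edgeR) for PMA_ethanol versus Control. In Sgms2 it was -0.96 (SE 0.155, adjusted p = 0.000159 by edgeR) for PMA_1002 versus PMA_ethanol and 0.95 (SE 0.155, adjusted p = 7.52e-05 by edgeR) for PMA_1002 versus Control. Sgms1 had 101, 87.7, 74.0, 105 and 91.3 CPM in Control libraries 1 to 5 and 194, 158, 223 and 184 CPM in PMA_ethanol libraries 1 to 4. For Sgms1, the 6 PMA_1002 libraries lay between 119 and 172 CPM with a median of 146. It rose by 1.04 (SE 0.121, adjusted p = 7.59e-07 by edgeR) with PMA_ethanol and was lower with the peptide, at -0.37 (SE 0.115, adjusted p = 0.0194 by edgeR), a call lost without PMA_ethanol library 3 (adjusted p = 0.0799), and with upper-quartile scaling or with the sebaceous covariate (adjusted p between 0.0512 and 0.0977). Against Control, Sgms1 was higher in PMA_1002 by 0.67 (SE 0.11, adjusted p = 7.25e-05 by edgeR).

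Of the sphingomyelinases, which release ceramide from sphingomyelin, the acid enzyme Smpd1 (109.7 to 117 CPM in Control, 101 to 163 in PMA_ethanol and 107 to 162 in PMA_1002) passed in no comparison, with 0.17 (SE 0.130, adjusted p = 0.268 by edgeR) for PMA_ethanol versus Control. The neutral enzyme Smpd2 (chromosome 10, 41485642 to 41490369) had 27.4, 38.6, 33.9, 30.2 and 29.5 CPM in Control libraries 1 to 5 and 11.4, 14.0, 10.4 and 13.7 CPM in PMA_ethanol libraries 1 to 4. For Smpd2, the 6 PMA_1002 libraries lay between 16.5 and 23.6 CPM with a median of 17.98. Its 3 groups were apart, with PMA_ethanol lowest. Smpd2 had a log2 fold change of -1.34 (SE 0.133, adjusted p = 1.17e-07 by edgeR) for PMA_ethanol versus Control. In Smpd2 it was 0.55 (SE 0.128, adjusted p = 0.00312 by edgeR) for PMA_1002 versus PMA_ethanol and -0.79 (SE 0.114, adjusted p = 1.94e-05 by edgeR) for PMA_1002 versus Control. Smpd3, another neutral sphingomyelinase, had 30.8 to 51.7 CPM in Control, 39.9 to 104 in PMA_ethanol and 58.3 to 118 in PMA_1002. It rose by 0.71 (SE 0.283, adjusted p = 0.0379 by edgeR) with PMA_ethanol, a call lost without Control libraries 2, 3 or 4 or PMA_ethanol libraries 1 or 3 (adjusted p between 0.0534 and 0.17), and with upper-quartile scaling, without the filter on low counts or with the sebaceous covariate (adjusted p between 0.0733 and 0.626), and was higher in PMA_1002 than in Control by 0.93 (SE 0.258, adjusted p = 0.00745 by edgeR), a call lost with the sebaceous covariate (adjusted p = 0.168).

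Ceramidases cut ceramide to sphingosine. The 4 of the list, Acer1, Acer2, Acer3 and Asah1, fell with PMA_ethanol, where 35.9% of all genes were called lower, while the neutral ceramidase Asah2, from the list of other sphingolipid genes, had -0.11 (SE 0.181, adjusted p = 0.603 by edgeR). Acer1 (chromosome 17, 56953490 to 56982126), the alkaline ceramidase of differentiating epidermis, had 228, 217, 198, 204 and 205 CPM in Control libraries 1 to 5 and 71.4, 94.7, 63.5 and 99.7 CPM in PMA_ethanol libraries 1 to 4. For Acer1, the 6 PMA_1002 libraries lay between 123 and 182 CPM with a median of 145. The groups were apart. Acer1 had a log2 fold change of -1.34 (SE 0.129, adjusted p = 8.56e-08 by edgeR) for PMA_ethanol versus Control. In Acer1 it was 0.83 (SE 0.124, adjusted p = 6.23e-05 by edgeR) for PMA_1002 versus PMA_ethanol and -0.51 (SE 0.112, adjusted p = 0.00104 by edgeR) for PMA_1002 versus Control. Acer2, of the Golgi, had 53.9, 49.8, 48.8, 48.4 and 50.7 CPM in Control libraries 1 to 5 and 17.8, 22.7, 17.0 and 38.3 CPM in PMA_ethanol libraries 1 to 4. For Acer2, the 6 PMA_1002 libraries lay between 27.4 and 56.4 CPM with a median of 35.4. PMA_ethanol lay below Control and overlapped PMA_1002. Acer2 had a log2 fold change of -1.05 (SE 0.231, adjusted p = 0.000814 by edgeR) for PMA_ethanol versus Control. In Acer2 it was 0.66 (SE 0.223, adjusted p = 0.0303 by edgeR) for PMA_1002 versus PMA_ethanol and -0.39 (SE 0.200, adjusted p = 0.116 by edgeR) for PMA_1002 versus Control. The Acer2 call with the peptide was lost without PMA_ethanol libraries 1, 2 or 3 or PMA_1002 libraries 3 or 6 (adjusted p between 0.0579 and 0.106), and without the filter on low counts, with only these groups in the fit, with the hair follicle covariate or with the sebaceous covariate (adjusted p between 0.0575 and 0.0926). For PMA_ethanol versus Control the Acer2 call was lost with the sebaceous covariate (adjusted p = 0.143). Acer3 (48.6 to 83.3 CPM in Control, 43.9 to 59.7 in PMA_ethanol and 50.8 to 73.5 in PMA_1002) fell by 0.41 on the log2 scale with PMA_ethanol (SE 0.152, edgeR adjusted p = 0.0233), a call lost without Control libraries 1, 4 or 5 or PMA_ethanol library 2 (adjusted p between 0.0518 and 0.0841), and without the filter on low counts (adjusted p = 0.0541). The lysosomal acid ceramidase Asah1 (59.4 to 72.1 CPM in Control, 48.2 to 58.6 in PMA_ethanol and 56.3 to 67.8 in PMA_1002) fell by 0.32 on the log2 scale (SE 0.0853, edgeR adjusted p = 0.00308) and was higher with the peptide by 0.26 (SE 0.0821, adjusted p = 0.02 by edgeR), a call lost without PMA_ethanol libraries 1 or 2 (adjusted p between 0.0509 and 0.0756), and with the hair follicle covariate (adjusted p = 0.0522). The suprabasal keratinocyte markers, where Acer1 is expressed, were lower in PMA_ethanol too (9378 to 13099 CPM against 17055 to 23923 CPM in Control), and their part in the Acer1 value was not tested.

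Sphingosine kinases phosphorylate sphingosine, and the 2 isoforms moved in opposite directions. Sphk1 (chromosome 11, 116530925 to 116536674), the cytosolic form, had 71.6, 56.2, 65.7, 63.8 and 67.6 CPM in Control libraries 1 to 5 and 159, 151, 180.0 and 193 CPM in PMA_ethanol libraries 1 to 4. For Sphk1, the 6 PMA_1002 libraries lay between 117 and 154 CPM with a median of 145. Every PMA library exceeded Control, while PMA_ethanol and PMA_1002 overlapped. Sphk1 had a log2 fold change of 1.39 (SE 0.0962, adjusted p = 1.42e-09 by edgeR) for PMA_ethanol versus Control. In Sphk1 it was -0.26 (SE 0.0908, adjusted p = 0.0368 by edgeR) for PMA_1002 versus PMA_ethanol and 1.13 (SE 0.0887, adjusted p = 2.07e-08 by edgeR) for PMA_1002 versus Control. The lower level with the peptide lost its call without PMA_ethanol libraries 3 or 4 or PMA_1002 libraries 2, 3 or 4 (adjusted p between 0.0618 and 0.136), and with upper-quartile scaling, without the filter on low counts, with only these groups in the fit or with the sebaceous covariate (adjusted p between 0.052 and 0.137). Sphk2, found also in the nucleus, ranged over 58.0 to 77.0 CPM in Control, 38.9 to 40.6 in PMA_ethanol and 34.3 to 58.3 in PMA_1002. It fell by 0.71 on the log2 scale with PMA_ethanol (SE 0.127, edgeR adjusted p = 9.17e-05), its change in PMA_1002 against Control was -0.54 (SE 0.112, adjusted p = 0.000651 by edgeR), and between the PMA groups it was 0.17 (SE 0.123, adjusted p = 0.289 by edgeR). Sgpl1, the lyase that removes the phosphorylated base for good, ranged over 254 to 302 CPM in Control, 268 to 295 in PMA_ethanol and 236 to 289 in PMA_1002 and passed in no comparison (0.04, SE 0.0770, adjusted p = 0.664 by edgeR for PMA_ethanol versus Control), although with upper-quartile scaling its value was -0.20 (edgeR adjusted p = 0.027), opposite in sign. With that scaling Sgpl1 was also called lower in PMA_1002 than in Control (edgeR adjusted p = 0.00978). Of the 37 genes, 13 overlap an annotated gene on the other strand: Sphk2 (Dbp and Rpl18), Smpd2 (Mical1), Smpd3 (Prmt7 and others), Elovl1 (Cdc20), Cers2 (Setdb1 and another), Degs2 (Evl), Pnpla1 (Pnpla1os), and Sptlc2, Sptlc3, Sphk1, Cerk, Cers5 and Abhd5, which overlap genes known only by a model or clone number. Smpd3 also overlaps 1 on its own strand. Although the library kit keeps strand, how the counting used it is not stated, so reads of the shared stretches are uncertain.

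**Figure D3:**
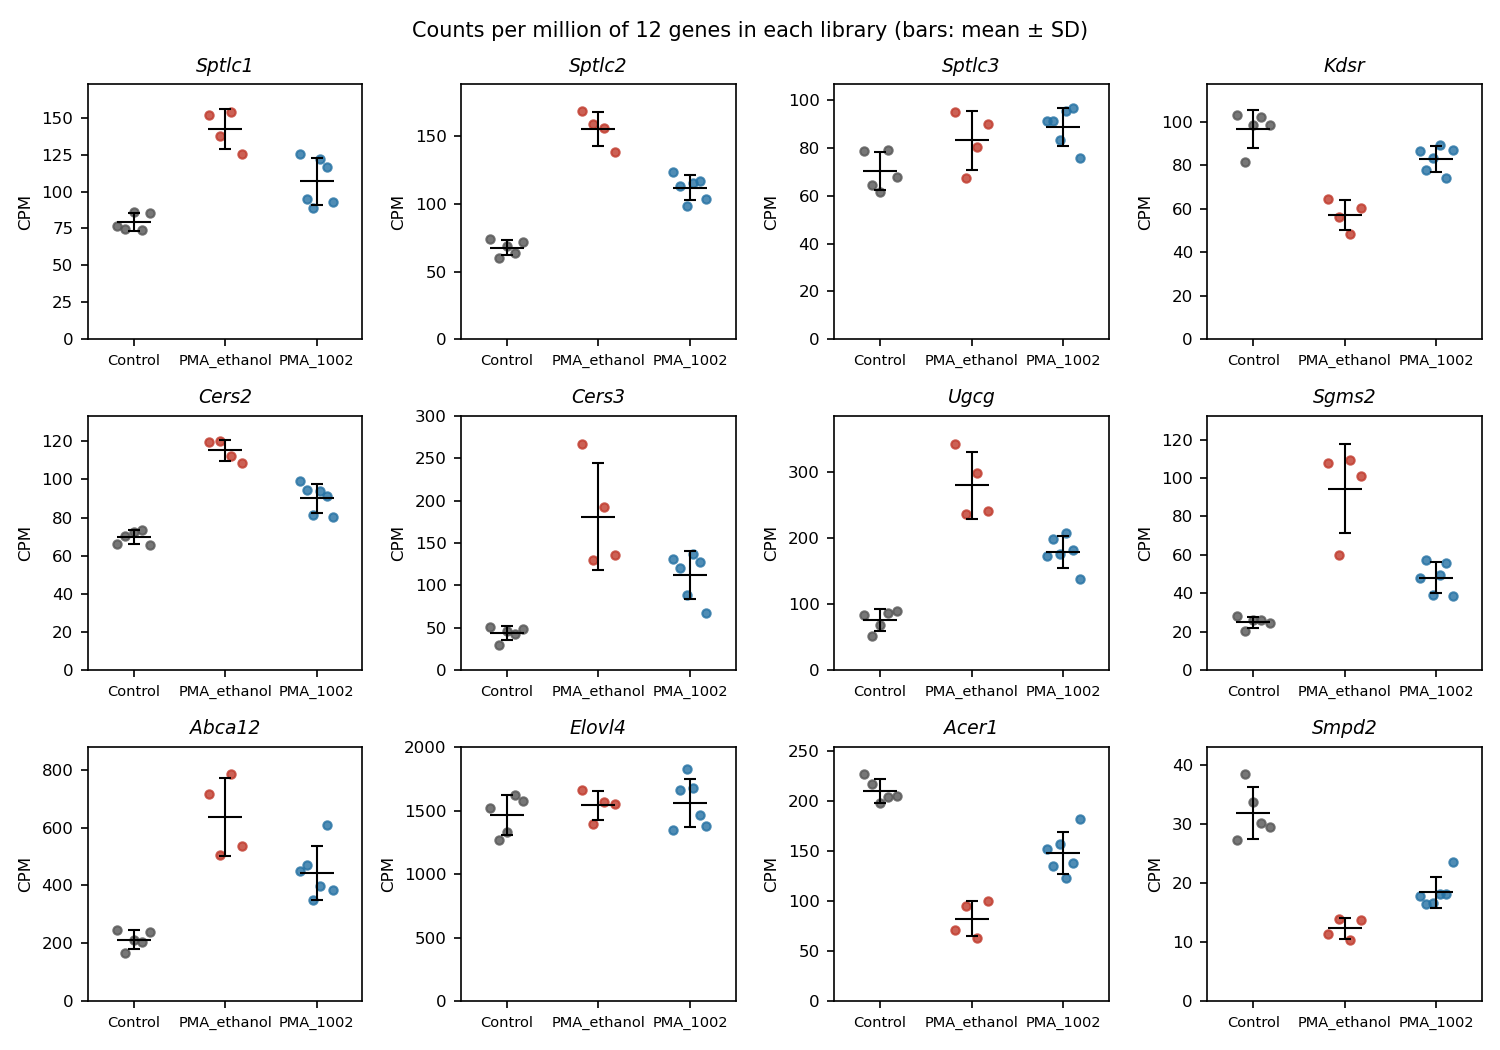
CPM in each library (points) with the group mean and SD (bars) for 12 of the genes; vertical axes start at 0 and differ between panels. Sptlc1, Sptlc2, Cers2, Ugcg, Sgms2, Acer1 and Smpd2 have 3 groups that do not overlap, Kdsr has PMA_ethanol below both other groups, and Elovl4 overlaps throughout.

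Isoenzymes were next compared within each library, as the log2 ratio of their CPM with 0.5 added to each. The 9 ratios were tested in the 3 comparisons with two-sided exact permutation tests over libraries and adjusted over the 27 tests. They reuse the CPM of genes already tested singly, so their results are not independent of the calls above. The balance moved from Sptlc3 to Sptlc2 with PMA_ethanol: the difference in the Sptlc3/Sptlc2 ratio was -0.96 (exact permutation p = 0.00794, adjusted p = 0.0213) from Control in the exact permutation test. PMA_1002 lay between, with differences of 0.58 (exact permutation p = 0.00476, adjusted p = 0.0213) from PMA_ethanol and -0.38 (exact permutation p = 0.00216, adjusted p = 0.0213) from Control, with no overlap of the 3 groups. Each of these exact p-values is the smallest that the permutations can give. The Sphk1/Sphk2 ratio had the largest difference, 2.09 (exact permutation p = 0.00794, adjusted p = 0.0213) between PMA_ethanol and Control in the exact permutation test, and it was lower with the peptide, at -0.42 (exact permutation p = 0.0238, adjusted p = 0.0402). Cers3 gained on Cers2 in PMA_ethanol by 1.29 (exact permutation p = 0.00794, adjusted p = 0.0213) and in PMA_1002 by 0.97 (exact permutation p = 0.00433, adjusted p = 0.0213) against Control in exact permutation tests, and between the PMA groups the difference was -0.32 (exact permutation p = 0.248, adjusted p = 0.304). Cers4 lost against Cers2, at -1.48 (exact permutation p = 0.00794, adjusted p = 0.0213) and -0.87 (exact permutation p = 0.00866, adjusted p = 0.0213) in the same order.

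Sgms2 gained on Sgms1 with PMA_ethanol by 0.83 (exact permutation p = 0.0159, adjusted p = 0.0306) and was lower with the peptide, at -0.57 (exact permutation p = 0.0143, adjusted p = 0.0297) in exact permutation tests. Acer1 lost against Asah1, at -1.05 (exact permutation p = 0.00794, adjusted p = 0.0213) and was higher with the peptide by 0.60 (exact permutation p = 0.0143, adjusted p = 0.0297). Elovl4 lost against Elovl1, at -0.70 (exact permutation p = 0.00794, adjusted p = 0.0213) with PMA_ethanol, and between the PMA groups the exact test gave 0.25 (exact permutation p = 0.243, adjusted p = 0.304). The ratios Degs2/Degs1 and Sptssb/Sptssa did not pass in any comparison, with 0.52 (exact permutation p = 0.27, adjusted p = 0.317) and -0.01 (exact permutation p = 0.984, adjusted p = 0.984) for PMA_ethanol versus Control by exact permutation. In all, 7, 4 and 6 of the 9 ratios passed in the 3 comparisons in order. Without Control library 2 the counts were 0, 1 and 2, and leaving out any library of a comparison also raises the smallest p that its permutations can give. For PMA_1002 versus PMA_ethanol 1 of 9 passed without PMA_ethanol library 1, 3 or 4, and 2 of 9 without PMA_1002 library 1, 3, 4 or 6.

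**Figure D4:**
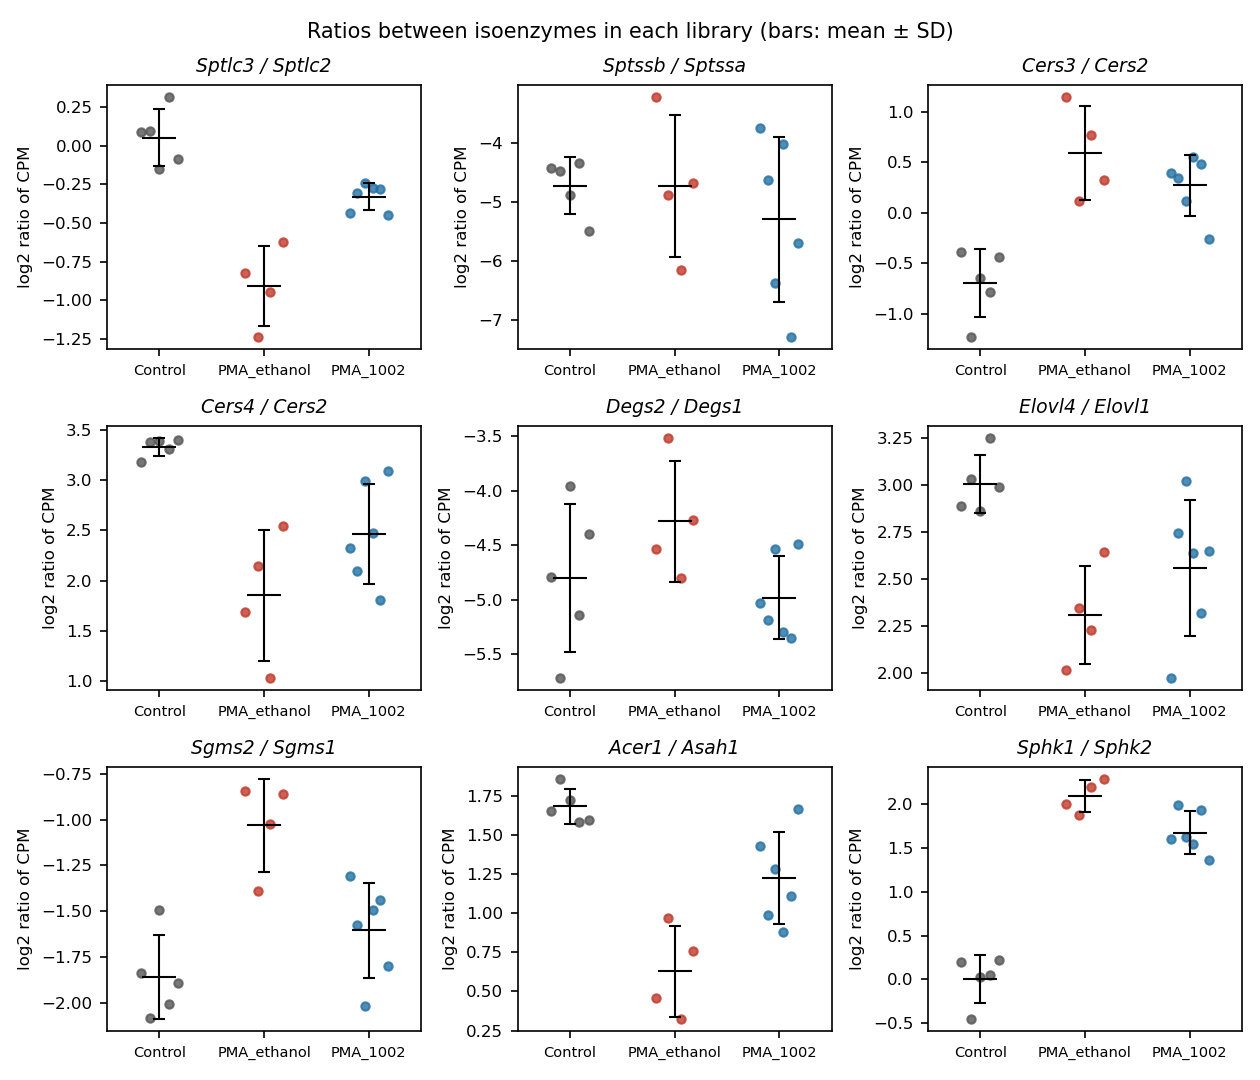
Log2 ratio of the CPM of 2 isoenzymes in each library (points) with the group mean and SD (bars), 1 panel per pair; vertical axes differ between panels. Sptlc3/Sptlc2 separates all 3 groups, at means of 0.05, -0.91 and -0.33 in Control, PMA_ethanol and PMA_1002, while Sptssb/Sptssa and Degs2/Degs1 overlap.

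Other genes of sphingolipid metabolism, from a list of 34 of which 33 were tested, gave the following counts. With PMA_ethanol 7 rose and 10 fell against Control, beside 32.5% and 35.9% of all genes, with a median log2 fold change of -0.11 beside -0.07. B4galt5, a lactosylceramide synthase, rose by 3.20 (SE 0.103, adjusted p = 1.81e-13 by edgeR) from a mean of 16.1 to 149.7 CPM. Neu1, a lysosomal sialidase, rose by 0.70 and Smpdl3b, a membrane phosphodiesterase, by 0.84 (edgeR adjusted p = 3.98e-05 and 0.000207). Ormdl3, an inhibitor of serine palmitoyltransferase, fell by 0.74 on the log2 scale (edgeR adjusted p = 2.9e-07), Sgpp1, a phosphatase of sphingosine phosphate, by 1.21 (edgeR adjusted p = 4.52e-06), and Gal3st1, which makes sulfatide, by 1.81 (edgeR adjusted p = 1.63e-05). Between PMA_1002 and PMA_ethanol 6 were higher and 3 lower, beside 17% and 18% of all genes, with a median of 0.03 beside 0.03. Sgpp1 was higher with the peptide by 1.02 (SE 0.156, adjusted p = 9.72e-05 by edgeR), Ormdl3 by 0.38 (SE 0.0760, adjusted p = 0.000913 by edgeR) and Plpp2, a lipid phosphate phosphatase, by 0.42 (SE 0.0940, adjusted p = 0.00241 by edgeR). Lower were B4galt5, -1.05 (SE 0.0896, adjusted p = 2.41e-07 by edgeR), Neu1, -0.50 (SE 0.109, adjusted p = 0.00194 by edgeR), and Plpp3, another lipid phosphate phosphatase, -0.48 (SE 0.0902, adjusted p = 0.000593 by edgeR).

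A second list held 34 other barrier lipid and fatty acid genes, of which 33 were found and 31 tested. With PMA_ethanol 11 rose and 15 fell, beside 32.5% and 35.9% of all genes, with a median of -0.26 beside -0.07 over all genes. Tgm1, the transglutaminase that links the cornified envelope, rose by 2.98 (SE 0.232, adjusted p = 2.41e-08 by edgeR), Ephx3, an epoxide hydrolase, by 1.58 (SE 0.146, adjusted p = 6.35e-08 by edgeR), and Nipal4, a membrane protein of the acylceramide pathway, by 1.54 (SE 0.146, adjusted p = 9.05e-08 by edgeR). Lipm (-1.29, SE 0.139, adjusted p = 3.36e-07 by edgeR), the desaturase Fads1 (-0.90, SE 0.125, adjusted p = 6.98e-06 by edgeR) and the acyl-CoA synthetase Acsl1 (-0.71, SE 0.115, adjusted p = 3.11e-05 by edgeR) fell. Between PMA_1002 and PMA_ethanol 8 were higher and 9 lower, beside 17% and 18% of all genes, with a median of 0.02 beside 0.03. Slc27a3, an acyl-CoA synthetase, was higher with the peptide by 1.37 (SE 0.149, adjusted p = 2.88e-06 by edgeR). Tgm1 was lower, at -1.55 (SE 0.210, adjusted p = 4.61e-05 by edgeR), Fabp5, a fatty acid carrier, at -0.71 (SE 0.128, adjusted p = 0.000382 by edgeR) and Ephx3, at -0.72 (SE 0.137, adjusted p = 0.000626 by edgeR).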

How the data were processed

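PolyA RNA of 15 mouse ear libraries was measured by RNA sequencing. The deposited values are raw read counts per Ensembl gene, and FastQC 0.11.5, MultiQC 0.8, STAR 2.5 and build GRCm38 are named per the submitters' processing notes (strand option and annotation release not stated there). Reads in no gene (28.5% to 32.85%) were left out. Symbols came from GENCODE M21 (48435 of 48795 genes). edgeR 4.0.16 in R 4.3.3 (TMM, filterByExpr, robust quasi-likelihood fit over all 15 libraries) tested 14991 genes. The fit was also run on simulated counts in which few genes changed, so that run does not test the scaling where most genes change. Alternatives were upper-quartile and RLE scaling, no filter, at least 5 CPM in 4 libraries, DESeq2 1.42.0, 2 groups only, a replicate block, each library left out, ratio pseudocounts of 0.1 and 2 CPM, and marker levels as covariates. Replicates differed by more than sampling noise in 31 of 31 pairs within groups (chi-square per degree of freedom 2.927 to 27.018). The members and lists were chosen with earlier results of these data known. All 37 members are described; values per library are given for called members with groups that do not overlap and a log2 fold change of at least 1, for Sptlc1, Sptlc2, Sptlc3, Cers3, Elovl4, Cyp4f39, Pnpla1 and Abca12, and for some others chosen after their values were seen (Kdsr, Cers2 and Cers4 among them). Of each other list, up to 3 genes per direction with the smallest adjusted p are named in the first 2 comparisons.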

Additional observations from a re-analysis of the deposited data

Results flagged for a closer look

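In 5 of the 111 sets of values examined (37 genes in 3 groups), 1 library stood apart from the rest of its group by Dixon's 95% criterion, and chance gives about 1 in 20. Cerk had 118.3 CPM in Control library 1, against 95.09 to 100.9 CPM in the other Control libraries. Kdsr had 81.47 CPM in Control library 2, against 98.44 to 103 CPM in the others. Cers6 had 21.5 CPM in PMA_1002 library 1, against 34.82 to 39.15 CPM in the others. Smpd2 had 23.55 CPM in PMA_1002 library 6, against 16.53 to 18.17 CPM in the others. Sphk2 had 40.61 CPM in PMA_ethanol library 2, against 38.91 to 39.14 CPM in the others, a gap that is small in CPM.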

How the results depend on the processing

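Of the values for single genes under the 24 alternatives, 2507 kept their side of the threshold (2411 with the same sign and 96, not called, with the other sign), 116 lost a call, 37 gained one and 4 changed sign with a call involved. Those 4, for PMA_ethanol versus Control, were Abhd5 at -0.0335, Cers4 at 0.12 and Smpd3 at -0.18 with the sebaceous level as a covariate and Sgpl1 at -0.20 with upper-quartile scaling. For PMA_1002 versus PMA_ethanol the number lower went from 12 to 7 with upper-quartile scaling and to 7 without a filter on low counts, and for PMA_1002 versus Control the number lower went from 4 to 8 with upper-quartile scaling. The cause was not tested. Calls lost with the sign kept numbered 15 with the sebaceous covariate, 11 with upper-quartile scaling and 10 without the filter. They numbered 6 with the hair follicle covariate, 6 with the replicate block and 5 with 2 groups only. RLE scaling, the stricter filter and DESeq2 lost none. The sebaceous covariate also ended the calls of Abhd5, Cers4 and Smpd3 for PMA_ethanol versus Control, where the sign changed. Without the filter the lost calls included Acer3 and Cers4 for PMA_ethanol versus Control and Kdsr for PMA_1002 versus Control. Leaving out 1 library gave 15 to 19 higher and 8 to 11 lower for PMA_ethanol versus Control, 5 to 8 and 7 to 12 for PMA_1002 versus PMA_ethanol, and 17 and 3 to 5 for PMA_1002 versus Control. The ratios that passed numbered 0 to 7, 1 to 4 and 2 to 6.

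With the replicate number as a block, 18 genes were higher and 9 lower, 7 and 8, and 17 and 4 in the 3 comparisons in order. It ended 6 calls: Acer3 for PMA_ethanol versus Control (edgeR adjusted p = 0.0872) and, for PMA_1002 versus PMA_ethanol, Acer2 (0.0978), Cers6 (0.057), Cyp4f39 (0.057), Degs2 (0.0752) and Sgms1 (0.0981). A check of correlations did not show pairing by number. Deviations of same-numbered libraries had a median correlation of -0.241 over 13 pairs, of which 2 were over 0.1, and 1 of 14 libraries correlated best with its own number. The highest correlation, 0.686, was between Control library 3 and PMA_ethanol library 2. These had the highest hair follicle levels of their groups (mean log2 CPM 7.13 and 7.02). Such differences between ears can mask a pairing, so the check cannot exclude one.

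Genes with low counts were measured less precisely (Sptssb, Degs2, Lipn), and PMA_ethanol library 3 had the fewest reads.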
